A study of Mus musculus with 8 samples.

Results

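The 36 genes described here lie on mouse chromosome 18, on either side of a cluster of immunity-related GTPase genes, and exclude the GTPases themselves. They were taken from a list of genes near the cluster that leaves out other genes lying between them. The list was chosen with earlier results of these data known. All 36 had at least 1 probe on the array, among 26703 genes that could be named, and all 36 passed the filter on dim probes, so no gene of the set was lost. In the gene order of the GRCm38.p6 assembly, 6 of them come before the GTPases, running from Slc12a2 through Fbn2, Slc27a6, Isoc1 and Adamts19 to Chsy3. The other 30 come after the GTPases, starting with the pseudogene BC023105 and ending with Fbxo38.

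Liver RNA of male mice was measured on 8 single-colour Agilent arrays. All mice came from NZO/HiBomDife, a New Zealand Obese strain prone to obesity and diabetes, crossed with C57BL/6J, and the genotypes are congenics on the NZO background. NN mice (Ltg/NZO.5.3N/N, 4 arrays) were compared with NB mice (Ltg/NZO.5.3N/B, 4 arrays), which differ from them in a chromosome 18 segment of 5.3 Mbp. Both genotypes ate a high-fat diet (HFD) with 45% fat until week 5, and the extraction notes give the same number as their age in weeks. The labels give the length of the segment but neither its ends nor what the last letters of the names stand for, so which of the 36 genes lie inside it was not known here.

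A congenic strain carries a chromosome segment of 1 inbred strain on the genome of another, so every gene within the segment comes with the alleles of its strain of origin. A sequence difference in or near a gene can change the level of that gene's own transcript, which is called a cis effect, and a response elsewhere in the genome can follow. The genes around this cluster share no pathway. They include the receptors that macrophages and stellate cells need for growth, a sulfate transporter, enzymes of sulfated glycans, a transcriptional coactivator of mitochondrial and lipid genes, and several genes best known from muscle, brain or gut.

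The signal at the 75th percentile lay between 445 and 584 intensity units per array, and 75.1% to 80.2% of probes stood well above background. Levels below are log2 signals relative to that percentile, each from the brightest probe of a gene. The 10 hepatocyte markers were all measured, and their mean level lay between 5.92 and 6.17 on the 8 arrays. Precision is limited by having only 4 arrays per genotype. Whether each array stands for its own animal is not spelled out in the labels, and the p-values describe the spread among these samples, which may in part be technical.

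None of the 36 genes differed between the genotypes by limma at an adjusted p under 0.05, where 0.00698% of all 42965 features did. At an unadjusted p under 0.05 the count was 7 of 36 genes, or 19.4%, against 1.69% of all features. Of these 7, 3 were higher in NB (background 0.738%) and 4 were lower in NB (background 0.957%). The genotypes did not overlap for 5 of the 36 genes, or 13.9%, against 1.16% of all features, with 2 of the 5 higher in NB (background 0.426%) and 3 lower (background 0.731%). Among 558 other chromosome 18 genes, 6 stood at an unadjusted p under 0.05, or 1.08%. These shares describe genes chosen with earlier results of these data known, and the difference between the shares was not tested.

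The 7 genes did not all go one way, and they were not a single block. In chromosome order they were Isoc1 and Chsy3 before the cluster, then BC023105 directly after it, then Pdgfrb, Csf1r and Slc26a2 close together further on, and finally Ablim3. Over all 36 genes, 15 had a higher mean in NB and 21 a lower one, or 41.7% and 58.3%. Among all features the shares were 45.9% and 54.1%. The median log2 fold change of the 36 genes was −0.03, beside −0.01 over all features. The median absolute log2 fold change was 0.09 for the 36 genes and 0.07 for all features. The median SD within a genotype was 0.14 for the 36 genes and 0.17 for all features.

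**Figure D1:**
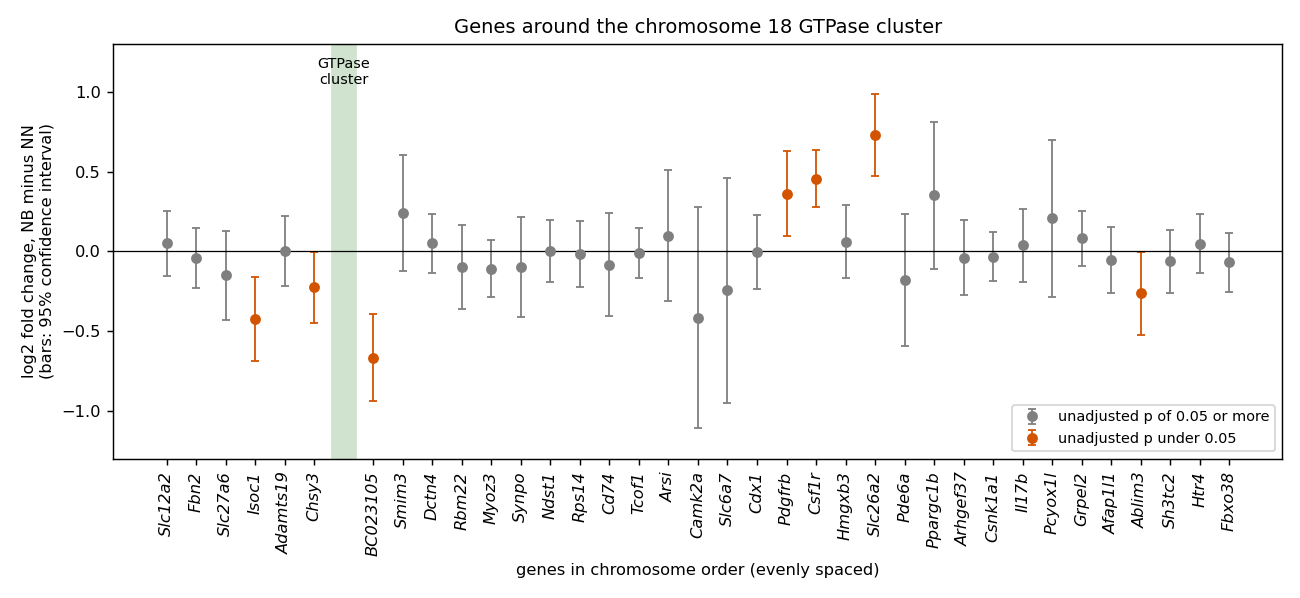
Log2 fold change of each of the 36 genes, NB minus NN, with 95% confidence intervals, in chromosome order and evenly spaced; the shaded band marks where the GTPase cluster lies. Orange points are the 7 genes at an unadjusted p under 0.05. Values run from −0.67 for BC023105 to 0.73 for Slc26a2, and 21 of the 36 genes lie within 0.1 of 0.

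Among the 4 transporter genes, Slc26a2 stood apart. It encodes a sulfate and chloride exchanger of the cell membrane whose loss in humans causes chondrodysplasias through undersulfated cartilage. On the NB arrays its log2 level was −2.29, −1.93, −1.99 and −1.96, and on the NN arrays −2.74, −2.79, −2.96 and −2.60. All 4 NB arrays thus lay above all 4 NN arrays, with NB 2 the lowest of its group. NB exceeded NN by 1.66-fold (95% confidence interval 1.39 to 1.98) or 0.73 on the log2 scale (SE 0.112), with means of −2.04 ± 0.17 in NB and −2.77 ± 0.15 in NN (SD, n = 4 each). This was the smallest p of the 36 genes, with a limma adjusted p of 0.708 over all features.

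Slc12a2, the sodium-potassium-chloride cotransporter NKCC1, had a log2 fold change of 0.05 (SE 0.0895). Slc27a6, a fatty acid transport protein, had −0.15 (SE 0.124), and its genotypes overlapped. Of the transporter genes, Slc6a7, a brain transporter of proline, varied most between arrays of the same genotype. Its level on the NB arrays was 3.75, 4.24, 3.46 and 2.68 and on the NN arrays 4.25, 3.62, 3.48 and 3.76. NB 8 was the lowest array, and the log2 fold change of −0.24 (SE 0.310) became 0.04 without it. The other tested Slc6a7 probe was much dimmer, with a mean level of −0.03, and its log2 fold change was −0.07 (SE 0.118).

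Sulfate taken up by such transporters is activated and then transferred to glycans, and a list of 22 genes of sulfate activation and sulfated glycan synthesis was set beside Slc26a2. Of these, 18 were measured, 8 were higher and 10 lower in NB, and 0 were at an unadjusted p under 0.05 by limma or called after adjustment. Their median log2 fold change was −0.01. The heparan sulfate sulfotransferase gene Hs3st3b1 had 0.11 (SE 0.0830), and the largest difference was that of the phenol sulfotransferase gene Sult1a1 at −0.24 (SE 0.193).

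Of the 5 genes of matrix and sulfated glycans around the cluster, 1 was at an unadjusted p under 0.05. Chsy3, a chondroitin sulfate synthase that helps extend the glycan chain, had levels of −1.95, −1.85, −1.68 and −1.88 on the NB arrays and −1.81, −1.63, −1.54 and −1.47 on the NN arrays. The genotypes overlapped, since NN 1 lay within the NB range. The log2 fold change was −0.23 (SE 0.0986, limma adjusted p = 1.00), or 1.17-fold lower in NB (95% confidence interval 1.00 to 1.37).

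Ndst1, the enzyme that starts the sulfation of heparan sulfate in liver, had means of 4.91 in both genotypes and a log2 fold change of 0.00224 (SE 0.0857). Its level was 4.73, 4.99, 4.91 and 5.03 on the NB arrays and 4.93, 4.90, 4.85 and 4.97 on the NN arrays, so the NB arrays spanned the NN range. Fbn2, a fibrillin of elastic fibres, had −0.04 (SE 0.0817) and the metalloprotease gene Adamts19 0.0015 (SE 0.0973). Arsi, an arylsulfatase, had 0.10 (SE 0.180). The interval of Ndst1, from −0.19 to 0.20, leaves room only for small differences in either direction.

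Receptors, ligands and antigen presentation gave 5 genes, of which Csf1r and Pdgfrb were higher in NB at an unadjusted p under 0.05. They are neighbours on the chromosome and encode related receptor tyrosine kinases. Csf1r, the receptor of the macrophage growth factors CSF1 and IL-34, had levels of 4.38, 4.35, 4.32 and 4.33 on the NB arrays and 3.99, 3.82, 3.77 and 3.99 on the NN arrays. The NB arrays lay close together and all above the NN arrays. The difference was 1.37-fold (95% confidence interval 1.21 to 1.55), or 0.46 on the log2 scale (SE 0.0784, limma adjusted p = 1.00), at 4.35 ± 0.02 against 3.89 ± 0.11 (SD, n = 4 each).

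Csf1r is made in liver mainly by Kupffer cells, the resident macrophages. In a bulk sample more cells of a type and more RNA per cell cannot be told apart. Of the 12 Kupffer cell markers, all measured, 11 were higher in NB. Their median log2 fold change was 0.16, and 0 were at an unadjusted p under 0.05 by limma. Adgre1, which encodes F4/80, had 0.22 (SE 0.113), Clec4f had 0.18 (SE 0.0906), and Folr2 had 0.13 (SE 0.0952). The mean level of the 12 markers lay between 1.53 and 1.90 on the NB arrays and between 1.44 and 1.79 on the NN arrays, so the genotypes overlapped for the markers but not for Csf1r, and 3 of the 4 NB arrays had the highest marker levels. Relative to these markers, Csf1r was 0.28 higher in NB on the log2 scale (two-sided exact permutation test over 70 splits, p = 0.143; p = 0.214 adjusted over 3 such comparisons). The smallest p that 4 against 4 arrays allow is 0.0286. Without NN 1 the relative difference was 0.37 (exact permutation p = 0.0286, again the smallest possible), and it was 0.18 without NB 2 and 0.19 without NN 6.

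Of 11 measured markers of recruited macrophages and monocytes, 9 were higher in NB, with a median of 0.20. Of 8 genes of CSF1R ligands and signalling 6 were higher, with a median of 0.04, and the ligand gene Csf1 itself had 0.18 (SE 0.132). None of the 11 macrophage and monocyte markers, and none of the 8 ligand and signalling genes, was at an unadjusted p under 0.05 by limma. Of 9 markers of dendritic and B cells 7 were higher, and Flt3, another receptor tyrosine kinase, had 0.47 (SE 0.103) with no overlap of the genotypes.

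Pdgfrb, the platelet-derived growth factor receptor of stellate cells and pericytes, had levels of −1.35, −0.91, −1.08 and −0.93 on the NB arrays and −1.31, −1.55, −1.54 and −1.31 on the NN arrays. NB 2 lay within the NN range, so the genotypes overlapped. The log2 fold change was 0.36 (SE 0.118, limma adjusted p = 1.00), or 1.28-fold higher in NB (95% confidence interval 1.07 to 1.55). A second probe of Pdgfrb, designed to another transcript accession, gave 0.08 (SE 0.0983), and the mean of both probes gave 0.22.

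Of 13 stellate cell markers, 9 were higher in NB, with a median of 0.07, and 0 were at an unadjusted p under 0.05 by limma. Their mean level lay between 0.74 and 1.06 on the NB arrays and between 0.71 and 0.92 on the NN arrays. Relative to them, Pdgfrb was 0.30 higher in NB (two-sided exact permutation test, p = 0.0571; adjusted p = 0.171). Without NB 5 this was 0.37, the largest value with any 1 array left out (exact permutation p = 0.0286, the smallest possible). Without NB 3 or without NB 8 the relative difference was smaller than with all arrays. With the mean of the Pdgfrb probes it was 0.16 (exact permutation p = 0.143). Among the 5 genes for PDGF ligands and the partner receptor, 3 were higher, and Pdgfra had 0.17 (SE 0.156).

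**Figure D2:**
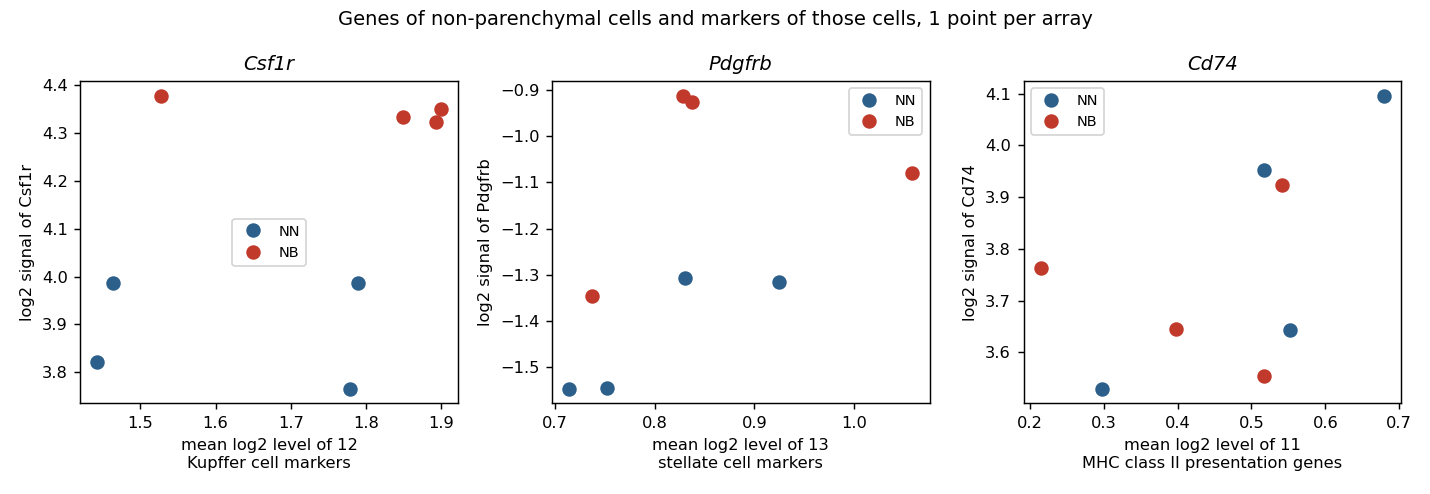
Log2 signal of Csf1r, Pdgfrb and Cd74 against the mean log2 level of 12 Kupffer cell markers, 13 stellate cell markers and 11 MHC class II genes; each point is 1 array, blue for NN and red for NB. For Csf1r the red points all lie above 4.3 and the blue points below 4.0, with 3 red points also farthest to the right; for Pdgfrb 1 red point lies among the blue, and for Cd74 the colours mix.

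Cd74, the invariant chain that escorts MHC class II molecules, did not show such a difference. It was at 3.92, 3.55, 3.76 and 3.64 on the NB arrays and 4.10, 3.95, 3.53 and 3.64 on the NN arrays, and the genotypes overlapped. The log2 fold change was −0.08 (SE 0.142). Relative to 11 MHC class II genes, Cd74 differed by 0.00961 (two-sided exact permutation test, p = 0.971; adjusted p = 0.971). Of those 11 genes 4 were higher in NB, with a median of −0.01, and H2-DMa was the one at an unadjusted p under 0.05, with 0.17 (SE 0.0731). Il17b, a cytokine of the interleukin 17 family, had 0.04 (SE 0.0997), and the serotonin receptor gene Htr4 had 0.05 (SE 0.0814).

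Among the 6 genes of gene expression and the ribosome, none was at an unadjusted p under 0.05 by limma. Rps14, a protein of the small ribosomal subunit, had levels of 4.91, 5.18, 5.15 and 5.25 on the NB arrays and 5.10, 5.10, 5.24 and 5.12 on the NN arrays. Its log2 fold change of −0.02 (SE 0.0914) was within the spread of either genotype. Ribosomal protein genes have many processed copies in the genome, whose transcripts a probe may not tell apart. Rbm22 of the spliceosome had −0.10 (SE 0.115), the nucleolar factor gene Tcof1 −0.00884 (SE 0.0696), the intestinal homeobox gene Cdx1 −0.00687 (SE 0.102) and Hmgxb3 0.06 (SE 0.101).

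Ppargc1b, which encodes the coactivator PGC-1beta of mitochondrial and lipogenic genes, had the largest value of this group at 0.35 (SE 0.202). It was at −0.53, −0.64, −0.64 and −0.18 on the NB arrays and −0.33, −1.07, −1.26 and −0.74 on the NN arrays. NN 1 lay above 3 of the NB arrays. The difference was 0.81 among the 4 arrays of slide row 1 and −0.11 among the 4 of row 2, and it was 0.53 without NN 1, 0.21 without NN 6 and 0.25 without NB 8. Of 11 partners and targets of the PGC-1 coactivators, 3 were higher in NB, with a median of −0.05, and 0 were at an unadjusted p under 0.05 by limma; Srebf1 had −0.17 (SE 0.131).

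The 5 genes of cytoskeleton and muscle held 1 with separate genotypes. Ablim3, an actin-binding LIM protein, was at 1.98, 1.51, 1.97 and 1.83 on the NB arrays and 1.99, 2.15, 2.15 and 2.05 on the NN arrays. The gap between the groups was narrow, since NB 2 and NN 1 were nearly equal, and NB 3 was the lowest array. Its log2 fold change was −0.26 (SE 0.114, limma adjusted p = 1.00), or 1.20-fold lower in NB (95% confidence interval 1.00 to 1.44), and it was −0.16 without NB 3. The dynactin subunit gene Dctn4 had 0.05 (SE 0.0817), Synpo, the actin-associated synaptopodin of podocytes and neurons, −0.10 (SE 0.138), Myoz3 of the muscle Z-disc −0.11 (SE 0.0782) and Afap1l1 −0.05 (SE 0.0915).

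All 6 genes of kinases and other signalling had a lower mean in NB, but none was at an unadjusted p under 0.05 by limma. Csnk1a1, the casein kinase that primes beta-catenin for degradation, had −0.03 (SE 0.0669), with an interval from −0.19 to 0.12. Arhgef37 had −0.04 (SE 0.103), Sh3tc2, known from peripheral nerve myelin, −0.06 (SE 0.0874), the F-box gene Fbxo38 −0.07 (SE 0.0805) and the rod phosphodiesterase gene Pde6a −0.18 (SE 0.182). Pde6a ran from −0.30 to −0.0434 with 1 array left out in turn. Camk2a, the neuronal calmodulin-dependent kinase, had −0.42 (SE 0.305). That value came from 1 array, since NB 8 was at −3.94 and the other 7 arrays lay between −2.63 and −2.33, and without NB 8 the log2 fold change was −0.07. The neighbouring gene Slc6a7 was also lowest on NB 8.

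The remaining 5 genes held 2 with separate genotypes. BC023105, a pseudogene directly beside the GTPases, was at −2.50, −2.61, −2.33 and −2.26 on the NB arrays and −1.77, −2.001, −1.54 and −1.71 on the NN arrays. All 4 NB arrays lay below all 4 NN arrays. BC023105 was 1.59-fold lower in NB (95% confidence interval 1.31 to 1.92), or −0.67 on the log2 scale (SE 0.120, limma adjusted p = 1.00), at −2.42 ± 0.16 against −1.76 ± 0.19 (SD, n = 4 each). Of its neighbours within the cluster, the GTPase genes F830016B08Rik and Gm4951 went the other way, with 3.66 (SE 0.233) and 0.86 (SE 0.103), while Gm4841 had 0.08 (SE 0.151) and Iigp1 −0.13 (SE 0.102). Only F830016B08Rik was called among these GTPase genes (limma adjusted p = 0.00227, against 0.166 for Gm4951). Its NN mean of −5.34 was lower than the NN mean of any of the 36 genes. Without BC023105, 6 of the other 35 genes, or 17.1%, were at an unadjusted p under 0.05.

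Isoc1, which encodes an isochorismatase domain protein, was the gene before the cluster with separate genotypes. It was at 3.94, 3.63, 3.70 and 3.69 on the NB arrays and 4.44, 4.08, 4.00 and 4.14 on the NN arrays. NB 2 was the highest of its group and still lay below NN 6. Isoc1 was 1.34-fold lower in NB (95% confidence interval 1.12 to 1.61), or −0.43 on the log2 scale (SE 0.116, limma adjusted p = 1.00), at 3.74 ± 0.14 against 4.17 ± 0.19 (SD, n = 4 each). Smim3, a small membrane protein, had 0.24 (SE 0.161), Grpel2, a mitochondrial nucleotide exchange factor for the chaperone HSP70, 0.08 (SE 0.0756) and Pcyox1l 0.21 (SE 0.216). The value of Pcyox1l was 0.41 without NB 2 and 0.0404 without NB 3, and it was between 0.0167 and 0.0613 with normexp background correction. With 1 array left out in turn, Smim3 ran from 0.0886 to 0.34. The values of these genes overlapped between the genotypes.

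**Figure D3:**
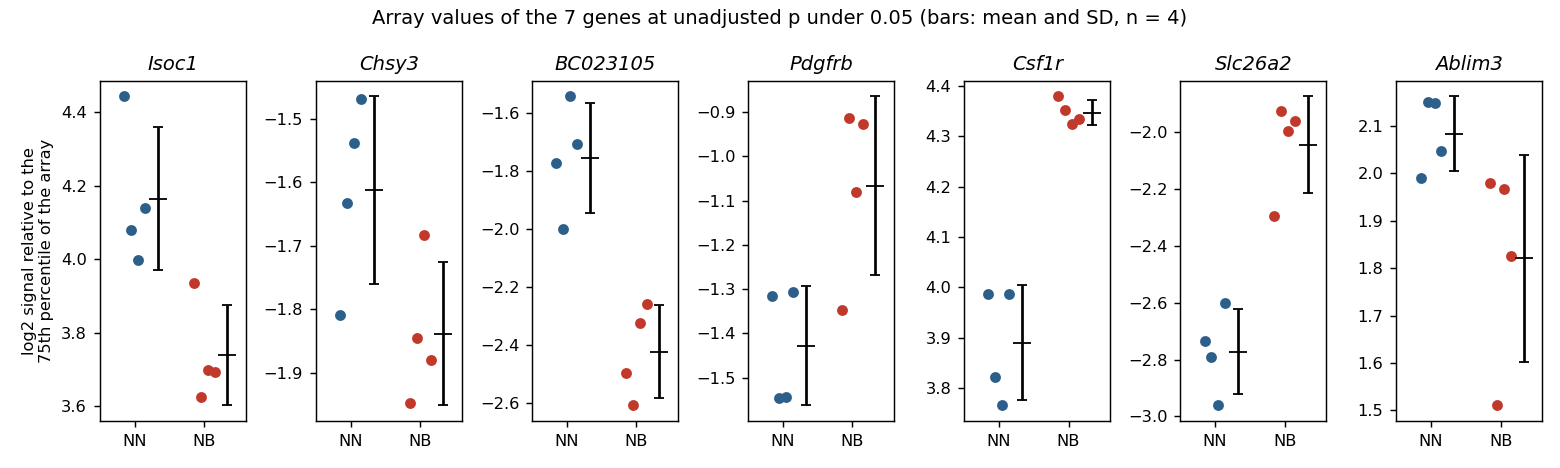
Log2 signal relative to the 75th percentile of the array for the 7 genes at an unadjusted p under 0.05; blue points are the 4 NN arrays, red points the 4 NB arrays, and bars give mean and SD. Each panel has its own vertical scale, and the groups are apart for Isoc1, BC023105, Csf1r, Slc26a2 and Ablim3 but overlap for Chsy3 and Pdgfrb.

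The slide had 4 columns, each with an NN and an NB array, so a difference can be given within each column. For 6 of the 7 genes it had the same sign in all 4 columns. For Slc26a2, Csf1r, BC023105, Isoc1 and Ablim3 this was fixed in advance, because their genotypes do not overlap. Within a column the difference lay between 0.44 and 0.97 for Slc26a2 and between 0.35 and 0.56 for Csf1r. It lay between −0.78 and −0.55 for BC023105 and between −0.51 and −0.30 for Isoc1. It ran from −0.41 to −0.14 for Chsy3 and from −0.64 to −0.01 for Ablim3. Pdgfrb was higher in NB in 3 of the 4 columns, with −0.03 in the column of NN 1 and NB 2 and up to 0.63 in another. Among the other genes, Slc27a6, Synpo, Camk2a and Pde6a were lower in NB in all 4 columns, from −0.22 to −0.07 for Slc27a6, −0.16 to −0.03 for Synpo and −0.31 to −0.06 for Pde6a. For Camk2a it was −1.34 in the column of NB 8 and −0.18 to −0.07 in the others. The share of all features with the same sign in all 4 columns was not counted. Smim3, like Ppargc1b, differed by slide row, with 0.56 in row 1 and −0.08 in row 2.

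Of 9 sinusoidal endothelial markers 4 were higher in NB, with a median of −0.01. Of 6 cholangiocyte markers 1 was higher, with a median of −0.04. Of the 10 hepatocyte markers 3 were higher, with a median of −0.04, and Cps1 of the urea cycle was at an unadjusted p under 0.05 with −0.30 (SE 0.127). No gene of the cell type, sulfation, PDGF, CSF1R and PGC-1 lists was called by limma over all features. The part of these markers in the values of the genes around the cluster was not tested beyond the 3 relative comparisons above.

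The 36 genes had 49 probes on the array, and 45 of these could be tested. Of the 9 genes with more than 1 tested probe, 5 had probes of 1 sign and 4 did not. Probes of Ndst1 gave 0.00224 and 0.02, those of Csnk1a1 −0.03 and −0.05, and those of Fbxo38 −0.07 and −0.15. Probes differed in sign for Slc12a2 (0.05 and −0.05), Myoz3 (−0.11 and 0.08), Synpo (−0.10 and 0.21) and Htr4 (0.05 and −0.42). The dimmer Htr4 probe was at −5.46 on NB 8 and between −3.97 and −3.52 on the other arrays. Slc26a2, Csf1r, BC023105, Isoc1, Chsy3 and Ablim3 each had a single probe, so no second probe could be set beside them. Camk2a, Adamts19 and Sh3tc2 each had a second probe that was well above background on 0 of the 8 arrays, and 1 of the 3 Slc6a7 probes was marked as an uneven spot on all 8.

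**Figure D4:**
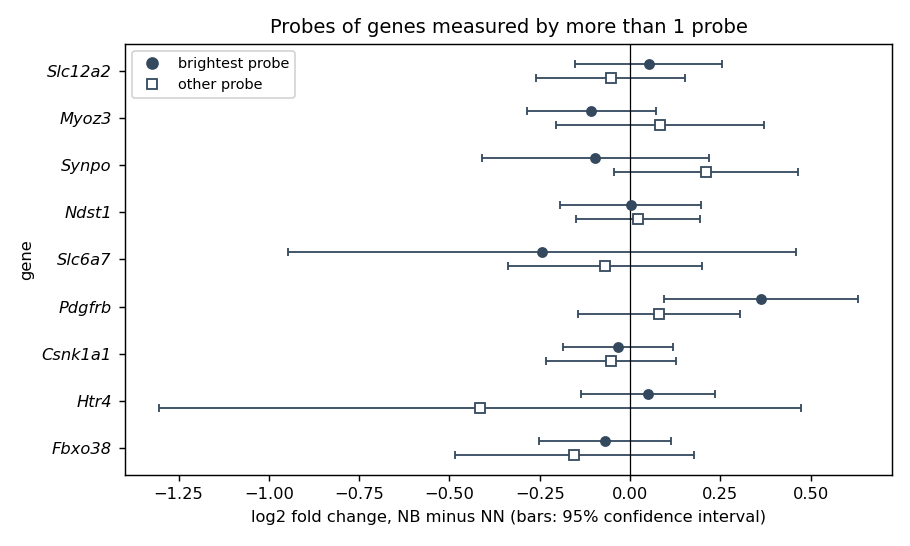
Log2 fold change, NB minus NN, with 95% confidence intervals for the 9 genes with more than 1 tested probe; filled circles are the brightest probe and open squares the other. The interval of the brightest Pdgfrb probe lies above 0 and that of its other probe spans 0; every other interval shown spans 0.

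The intervals give the size of difference these arrays allow. For 25 of the 36 genes the 95% confidence interval lay within a 1.5-fold change in either direction, and for 18 of them within 1.25-fold. The 11 genes whose interval reached beyond 1.5-fold were Slc26a2, BC023105, Isoc1, Csf1r and Pdgfrb, and the more variable Camk2a, Slc6a7, Ppargc1b, Pcyox1l, Smim3 and Pde6a. The difference for Camk2a could lie anywhere from −1.11 to 0.28 and that for Slc6a7 from −0.95 to 0.46. The interval for Ppargc1b ran from −0.11 to 0.81 and that for Pcyox1l from −0.28 to 0.70.

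The 7 genes at an unadjusted p under 0.05 were picked on these same arrays, so fitting the arrays in other ways is no independent support. Slc26a2, Csf1r, BC023105, Isoc1 and Pdgfrb were at an unadjusted p under 0.05 in all 22 fits, the reported one included, of which 8 leave out 1 array each. Over all features, the share at that level ran from 1.28% to 3.38% in these fits. Chsy3 was at that level in 7 of the 22 fits and Ablim3 in 9. The second Pdgfrb probe taken alone was not among the 22 fits, and it gave 0.08 (limma unadjusted p = 0.435). No gene of the 36 was called in any of the 22 fits, and the lowest adjusted p was 0.109, for Csf1r with normexp background correction and quantile scaling. That correction, which adds an offset of 50, lowered the log2 fold change of Slc26a2 to between 0.45 and 0.48 and that of BC023105 to between −0.46 and −0.45, while Csf1r had 0.46 to 0.50.

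**Figure D5:**
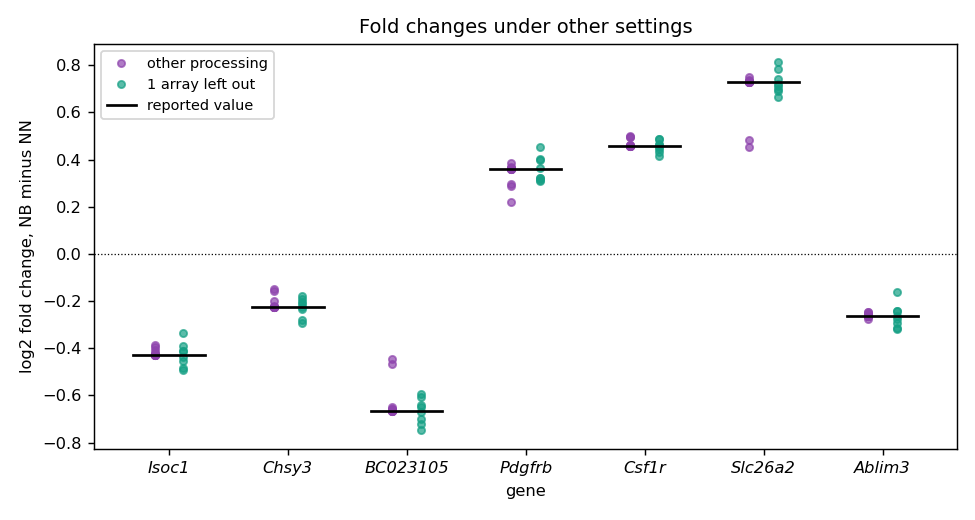
Log2 fold change of the 7 genes at an unadjusted p under 0.05 in the reported fit (black line), in 13 fits with other processing (purple) and in 8 fits with 1 array left out (green). No point crosses 0, and the purple points nearest 0 for Slc26a2 and BC023105 are the normexp fits.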

How the data were processed

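Liver RNA was labelled with Cy3 and hybridised to 8 arrays on 1 slide with 1 scan date. The scanner files give a processed intensity per spot, made with Agilent Feature Extraction 11.5.1.1 by spatial and multiplicative detrending and with no dye normalization, per the file headers; the submitters' processing notes name version 9.1. The authors' deposited value table holds intensity values whose sorted columns are identical, with a median of 84.2; how they were scaled is not given in the sources used here.

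Outlier spots (248 to 621 per array) were treated as missing, and spots of 1 probe were averaged as log2 values. Accessions without version were matched to the RefSeq table of GRCm38.p6, which was used only for names and gene order because the headers give mm9; this named 31076 of 60273 probes. The accession BC023105 was matched as a symbol. From each log2 value the 75th percentile of the array was subtracted. A probe was kept if it stood well above background on 4 or more arrays (47046), and the brightest represented each gene. NB minus NN was tested two-sided by lmFit and eBayes of limma 3.58.1, under R 4.3.3, with Benjamini-Hochberg adjustment over 42965 features and a threshold of 0.05. Steps were tested on simulated data. Whether probes match the alleles of both strains was not examined.

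Array values are given for genes at an unadjusted p under 0.05, for genes whose genotypes do not overlap and for the 5 with the brightest probe. Ppargc1b, Slc6a7 and Camk2a were added after their values were seen. The genes, lists and tests were chosen with earlier results of these data known. Alternatives covered background correction, scaling, the deposited value table, filters, probe summary, variance model, array weights, slide position, each array left out and an adjusted p of 0.1.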

Additional observations from a re-analysis of the deposited data

Results flagged for a closer look

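Each of the 36 genes was screened in both genotypes, 72 sets of 4 arrays, for an array far from the other 3. The screen marked 2 sets, or 2.78%, where chance gives about 5% of sets. Camk2a on NB 8 was at −3.94, while the other NB arrays lay between −2.63 and −2.47. Rps14 on NN 6 was at 5.24, while the other NN arrays lay between 5.10 and 5.12.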

How the results depend on the processing

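No gene of the 36 was called under any alternative or at an adjusted p of 0.1 (limma). With other processing, 457 of 477 values of single genes kept their sign, and with 1 array left out 266 of 288 did. The count at an unadjusted p under 0.05 was 5 to 7 throughout, beside 1.28% to 3.38% of all features. The count of genes whose genotypes do not overlap was 3 with normexp and quantile scaling (1.23% of all features), and 4 with the median, with the percentile over probes above background and with the value table. It was 5 to 7 with 1 array left out, where the share of all features was 2.18% to 4.29%, against 1.16% with all arrays. With normexp and quantile scaling the sign changed for Rps14 (0.0226), Tcof1 (0.0616), Cdx1 (0.00798) and Arhgef37 (0.0301), and with normexp and the 75th percentile for Adamts19 (−0.0155), Ndst1 (−0.0204), Tcof1 (0.0550) and Cdx1 (0.0130). It changed for Rps14 with quantile scaling (0.0371) and the authors' value table (0.0376), for Cdx1 with the median (0.000517) and array weights (0.00771), and for Tcof1 with array weights (0.00175). The mean of probes turned Slc12a2 (−0.000967), Htr4 (−0.18) and Synpo (0.0570), and the second probes turned Slc12a2 (−0.0532), Htr4 (−0.42), Myoz3 (0.0823) and Synpo (0.21). Leaving out 1 array gave −0.0545 to 0.0615 for Adamts19, −0.10 to 0.0111 for Arhgef37, −0.0474 to 0.21 for Arsi, −0.18 to 0.0129 for Cd74, −0.0589 to 0.0673 for Cdx1, −0.00181 to 0.13 for Hmgxb3, −0.00934 to 0.11 for Il17b, −0.0363 to 0.0641 for Ndst1, −0.0616 to 0.0528 for Rps14, −0.48 to 0.0394 for Slc6a7 and −0.0253 to 0.0244 for Tcof1. Pdgfrb relative to stellate cell markers was 0.24 with normexp and the 75th percentile (exact permutation p = 0.0286) and 0.24 to 0.37 with 1 array left out. With other processing of all 8 arrays, its exact permutation p otherwise ran from 0.0571 to 0.143. Csf1r relative to Kupffer cell markers was 0.18 to 0.37 with 1 array left out. Cd74 relative to MHC class II genes was −0.0223 (quantile) and −0.0357 (75th percentile) with normexp, −0.0513 with the value table, −0.0487 with the filter on all 8 arrays, and −0.0718 to 0.0985 with 1 array left out. The causes were not tested. Among the brightest probes of each gene, the dimmest were those of Pde6a, at 18.0 to 29.7 intensity units, and Pcyox1l, at 18.3 to 35.0. No paired analysis was possible because the genotypes share no replicate number, as far as numbers in the labels go. Arrays could be blocked by slide column, a position and not a pairing of mice, and 6 genes were then at an unadjusted p under 0.05, beside 2.85% of all features, and 0 were called (limma).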
